A study of Mus musculus with 6 samples.

Results

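Genes of glycolysis and of the response to low oxygen were measured on arrays of dorsal forebrain from mouse embryos of stage E11.5, 1 embryo to an array. The group holds 10 genes, namely Slc2a1, Hk2, Pfkl, Aldoa, Pgk1, Eno1, Ldha, Pdk1, Vegfa and Ankrd37. They were chosen by name, and their 13 probes are among the 26849 probes tested out of 39429 on the array. The symbol column of the authors' deposited table matched 7 of the probes (6 genes), and its column of Agilent symbols matched the other 6 (4 genes). All 13 probes were well above background on all 6 arrays, so that none owed its place to 1 group. The table names 17241 genes among the tested probes.

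The 3 control and 3 mutant embryos were paired by litter. Control 1 and mutant 1 came from litter 1, control 2 and mutant 2 from litter 2, and control 3 and mutant 3 from litter 3. The labels give no strain, name neither the mutated gene nor its alleles or any driver line, and give the genotype of the controls only as control. The series title places the work within Wnt/beta-catenin signalling in cortical precursors. Each array was hybridised with RNA from 1 embryo, taken from dissected dorsal forebrain with all the cell types it held, so that fewer cells of a type and less RNA per cell cannot be told apart.

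Glycolysis turns glucose into pyruvate in the cytosol. Pyruvate is then either reduced to lactate or passed to the mitochondria. When oxygen is short, the alpha subunits of the hypoxia-inducible factors (HIF) escape degradation, pair with Arnt and bind a short motif, the hypoxia response element, in genes for glucose uptake, glycolysis, lactate production and vessel growth. The early neuroepithelium is known to rely strongly on glycolysis before vessels have grown into it.

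The core of the hypoxia response element is ACGTG or GCGTG, read on either strand. It was searched for in the 250 bases before the outermost RefSeq start of each gene (GRCm38.p6). A match was present in 8 of the 10 windows, with Aldoa and Vegfa the exceptions, and in 14 of the 17 windows when all starts of the genes were taken, against 38.6% of all 32851 windows of that length in the RefSeq table. A match describes letters only and is no evidence of binding. Matches can overlap one another and E-boxes (CACGTG). Windows of neighbouring starts can also overlap and share matches, as they do for Aldoa and Eno1, so that the 17 windows are not independent. The sequences below are those of Ankrd37 and Hk2, the genes with the largest differences in either direction, and of Ldha. The Ldha window held the most matches (5, a CACGTG being counted on each strand). The brightest Ldha probe had a mean of 7.01 in both groups. The sequences are written 5′ to 3′ on the strand of the gene, with the matches in capitals. The Ankrd37 pieces lie at chr8:45999986-46000015 and chr8:45999851-45999880 (minus strand), the second ending at the base before the start. The Ldha piece lies at chr7:46845746-46845775 (plus strand), and the Hk2 window at chr6:82774455-82774704 (minus strand).
Ankrd37 distal: cttcactgcgCACGCGTGctgcggccgcct
Ankrd37 proximal: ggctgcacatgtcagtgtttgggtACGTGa
Ldha: gcccagcctaCACGTGggttcccgCACGTc
Hk2: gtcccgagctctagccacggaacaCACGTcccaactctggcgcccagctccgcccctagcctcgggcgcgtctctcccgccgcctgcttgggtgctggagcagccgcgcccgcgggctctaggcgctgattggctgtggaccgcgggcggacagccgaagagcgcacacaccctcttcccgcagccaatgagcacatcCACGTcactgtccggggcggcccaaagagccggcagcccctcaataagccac

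Each level is the log2 of a signal over the 75th percentile of its array, and 3 values in a row belong to litters 1, 2 and 3. Differences are mutant minus control on that scale, with the standard error (SE) and 95% interval of the limma fit over all tested probes, and adjusted p-values cover the whole table. The percentile was 1833.2 on the array of control 1 and 1206.9 to 1480.0 on the others, 65.75% to 70.1% of spots were well above background, and no spot was saturated. Slide 1 held both arrays of litter 1 and slide 2 the remaining 4, so that slide 1 and litter 1 cannot be told apart. All 7 markers of the dorsal forebrain were above background in every embryo. Of these, Emx2 (-0.92, SE 0.10), Lhx2 (-0.58, SE 0.09), Otx1 (-0.48) and Emx1 (-0.81) were lower in the mutants at an unadjusted p under 0.05, and Eomes (0.38) was higher.

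Vegfa and Ankrd37 were higher and Hk2 was lower in the mutant of every litter, while the other 7 genes did not keep 1 direction. None of the 13 probes passed the test (limma, adjusted p under 0.05), against 0.00745% of all tested probes called higher and 0.0186% called lower. At an unadjusted p under 0.05, 2 genes were higher (Vegfa and Ankrd37; 9.0% of all probes) and 1 was lower (Hk2; 7.43% of all probes). The median difference of the 10 genes was -0.004, beside 0.02 over all tested probes. It was 0.132 without mutant 3 and -0.137 without litter 1, which left slide 2 alone.

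**Figure D1:**
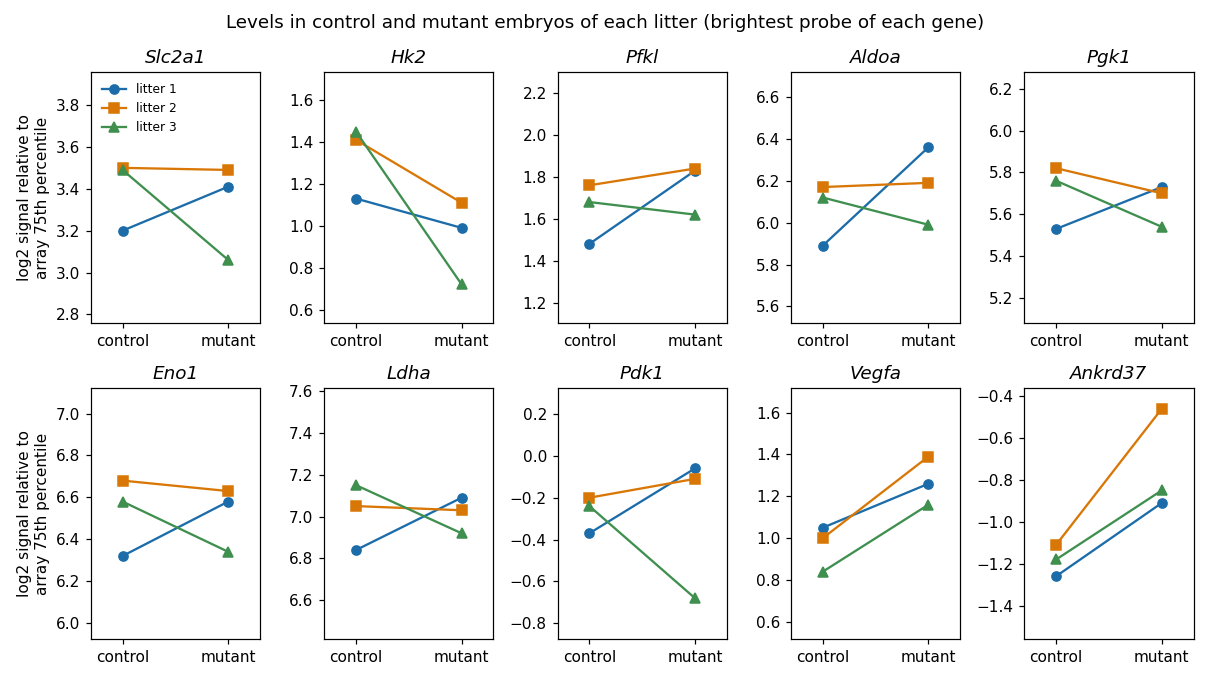
Log2 signal relative to the array's 75th percentile (vertical axis, each panel spanning the same range) in the control and the mutant of each litter, for the brightest probe of each of the 10 genes; a line joins litter mates. The 3 lines of Vegfa and Ankrd37 go up and those of Hk2 go down. Most glycolytic genes among the 10 go up in litter 1 and down in litter 3.

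Ankrd37 encodes a small ankyrin-repeat protein and is known as a HIF target. It was at -1.26, -1.11 and -1.18 in the controls, against -0.91, -0.46 and -0.85 in the mutants. All mutants lay above all controls, mutant 2 by the most. The difference was 0.45 (SE 0.14, interval 0.11 to 0.79), a 1.36-fold higher signal that did not pass the test (limma, adjusted p = 0.225). Within litters the differences were 0.35, 0.66 and 0.33. In the authors' deposited table the log2 ratio of this probe is 0.45 and its fdr 0.07476. The fdr there is 0.1374 for Hk2 and 0.1469 for the brighter Vegfa probe. It is missing for some probes, among them those of Aldoa, Pgk1 and Eno1, so it covers another set of probes than the adjusted p-value here. The authors' log2 values, fitted over all probes of that table, gave Ankrd37 an adjusted p of 0.162 (limma). The Ankrd37 probe maps to chromosome 8, bases 47082404 to 47082463 (mm9, as annotated for the array).

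Vegfa, the main secreted growth factor for blood vessels and a classical HIF target, was read by a pair of probes on chromosome 17 (mm9). The brighter, from 46154387 to 46154446, was at 1.05, 1.0 and 0.84 in the controls. In the mutants it was at 1.26, 1.39 and 1.16, again above every control. The difference was 0.31 (SE 0.10, interval 0.07 to 0.55, limma, adjusted p = 0.234), or 1.24-fold. The other Vegfa probe, from 46162376 to 46162435, was at -2.37, -2.31 and -2.48 in the controls and -1.89, -2.06 and -2.38 in the mutants. There mutant 3 lay within the control range, and the difference of 0.28 (SE 0.14) had an interval that includes 0 (-0.07 to 0.62). Both probes were higher in the mutant of each litter.

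Hk2, the hexokinase that phosphorylates glucose at the first step of glycolysis, was at 1.13, 1.41 and 1.45 in the controls. In the mutants it was at 0.99, 1.11 and 0.72, below every control. The difference was -0.39 (SE 0.14, interval -0.74 to -0.05), a 1.31-fold lower signal that did not pass the test (limma, adjusted p = 0.264). It was -0.14 in litter 1, -0.30 in litter 2 and -0.73 in litter 3, so that the gap in litter 1 was the smallest. Its probe maps to chromosome 6, bases 82675056 to 82675115 (mm9). Groups without overlap, as for these genes, were found for 12.3% of all tested probes with the mutants above and 12.0% with the mutants below. The same sign in all litters was found for 24.9% (higher) and 21.6% (lower). These calls at an unadjusted p under 0.05 were not stable. Hk2 lost its call with litter as a block, and without control 2, control 3, mutant 1 or mutant 3. Ankrd37 lost its call without control 1 and with median centring. The brighter Vegfa probe lost its call without control 3, mutant 2 or litter 1, and with median centring.

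The later steps of glycolysis differed little between the groups on average. Pfkl, the liver-type phosphofructokinase that commits glucose to glycolysis, was at 1.48, 1.76 and 1.68 in controls and 1.83, 1.84 and 1.62 in the mutants (difference 0.12, interval -0.15 to 0.39). Aldoa, the aldolase that splits fructose bisphosphate, was at 5.89, 6.17 and 6.12 in controls and 6.36, 6.19 and 5.99 in mutants (0.12, interval -0.19 to 0.43). In both genes control 1 was the lowest embryo, and mutant 3 lay below mutants 1 and 2.

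Pgk1, a phosphoglycerate kinase that makes ATP, was at 5.53, 5.82 and 5.76 in controls and 5.73, 5.70 and 5.54 in mutants (-0.05, interval -0.31 to 0.21). Eno1, the enolase that forms phosphoenolpyruvate, was at 6.32, 6.68 and 6.58 in controls and 6.58, 6.63 and 6.34 in mutants (-0.01, interval -0.34 to 0.32). Control 1 was the lowest of the 6 embryos for both genes, with mutant 3 next to it. The intervals allow a mutant signal of 0.807 to 1.16 times the control for Pgk1 and 0.792 to 1.25 times for Eno1. With 3 arrays a group, shifts within those ranges remain possible. The Pgk1 probe is placed by the array's mm9 annotation on chromosome 3, from 57906830 to 57906894, while the RefSeq table puts Pgk1 on chromosome X and a pseudogene, Pgk1-ps3, on chromosome 3. RefSeq also lists near copies of Aldoa (4), Ldha (3) and Eno1 (Eno1b), and whether the probes bind RNA of such copies was not tested.

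Ldha, the lactate dehydrogenase subunit that favours reduction of pyruvate to lactate, was read by 3 probes on chromosome 7 (mm9). The brightest, from 54110937 to 54110996, was at 6.84, 7.05 and 7.15 in controls and 7.09, 7.03 and 6.92 in mutants (0.00, interval -0.26 to 0.26). The probe from 54107294 to 54107353 had a difference of -0.10 (SE 0.14), and that from 54103010 to 54103069 one of -0.20 (SE 0.17). Mutant 3 was the lowest embryo at the last probe (1.60, against 1.99 to 2.26 in the other 5) and at the middle one (4.15, against 4.41 to 4.61), but not at the brightest, where control 1 was.

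Slc2a1 encodes Glut1, the glucose transporter of most embryonic cells and of brain endothelium. It was at 3.20, 3.50 and 3.49 in the controls, against 3.41, 3.49 and 3.06 in the mutants, with mutant 3 the lowest and control 1 next. The difference was -0.07 (SE 0.15, interval -0.44 to 0.29). Pdk1, the kinase that inhibits pyruvate dehydrogenase and so keeps pyruvate out of the mitochondria, was at -0.37, -0.20 and -0.24 in controls and -0.06, -0.11 and -0.68 in mutants. Its mean difference of -0.01 (interval -0.45 to 0.43) combined mutants 1 and 2, above every control, with mutant 3, below every control.

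**Figure D2:**
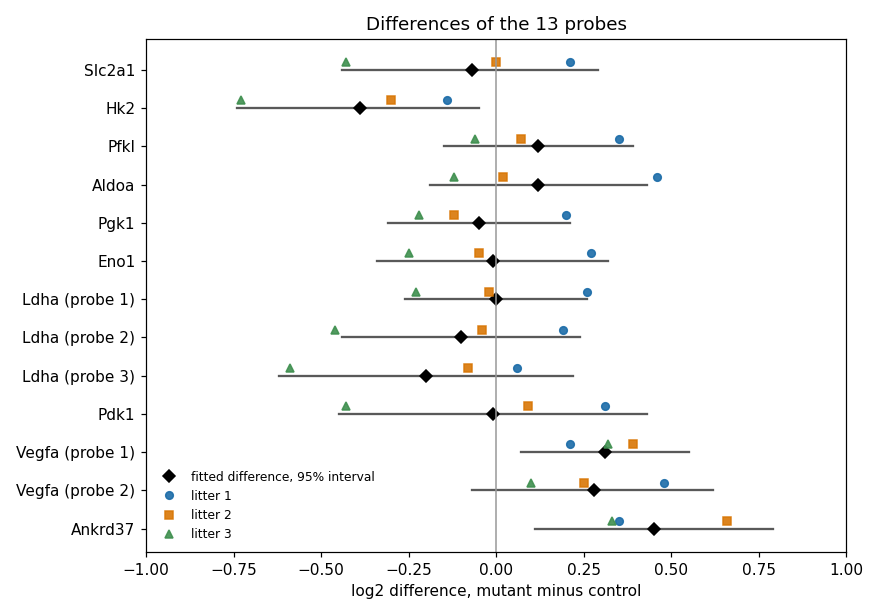
Log2 differences, mutant minus control (horizontal axis), of the 13 probes, numbered from the brightest where a gene has several; black diamonds are fitted differences with 95% intervals and coloured symbols the difference within each litter. The intervals of Hk2, Ankrd37 and the brighter Vegfa probe leave out 0, and in 11 of the 13 probes litter 1 has the highest and litter 3 the lowest difference.

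The direction of these genes was not the same in every litter. In litter 1, 9 of the 10 genes were higher in the mutant (median difference 0.26, beside 0.00 over all probes, of which 50.2% were higher). In litter 2, 5 of 10 were higher (median 0.01, and 52.2% of all probes). In litter 3, 2 of 10 were higher (median -0.23, and 54.6% of all probes), namely Vegfa and Ankrd37. All 6 glycolytic enzymes of the group were lower in the mutant of litter 3, and 5 of the 6 were higher in that of litter 1, all but Hk2. The 18 other glycolysis enzymes described below had median differences of 0.12, 0.05 and 0.06 in litters 1, 2 and 3. Their median thus did not show the drop in litter 3, but single enzymes of that list differed. Tpi1, Gpi1 and Pgam1 were higher in the mutant of litter 1 and lower in that of litter 3, like most of the 10 genes. Pfkm and Bpgm went the other way in both litters. These enzymes were named after their values were seen. The difference was highest in litter 1 and lowest in litter 3 for 8 of the 10 genes, against 18.8% of all tested probes. With 1 pair a litter, the difference between litters was not tested.

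Read by embryo, control 1 was the lowest of the 6 for 6 of the 10 genes and mutant 3 for 3. Measured from the control mean, the genes' median came to -0.17, 0.09 and 0.05 in the controls and 0.14, 0.12 and -0.13 in the mutants. Those of all tested probes lay between 0.00 and 0.03. Signals of other cell types varied over the same embryos. The summed linear signal of 12 endothelial markers, all above background in every embryo, was 19.2, 23.0 and 22.2 times the array percentile in the controls and 24.8, 19.1 and 16.6 in the mutants. It was lowest in mutant 3, with mutant 2 and control 1 next.

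That of 10 erythroid markers, all above background, was 661, 677 and 756 in the controls and 745, 707 and 460 in the mutants, lowest in mutant 3. That of 11 markers of meninges and head mesenchyme was 29.3, 22.3 and 19.5 in the controls and 43.1, 20.0 and 14.2 in the mutants, highest in mutant 1 and lowest in mutant 3. The sum of 9 neuron markers was 58.4 to 64.9 in the controls and 65.2, 83.9 and 93.8 in the mutants. That of 8 apical progenitor markers was 148 to 152 in the controls and 170 to 193 in the mutants. Fabp7 had by far the largest difference of these 8, at 1.39. The others were Pax6 at 0.33, Vim at 0.23, Nes at 0.18, Prom1 at 0.13, Sox2 at 0.05, Hes5 at -0.11 and Hes1 at -0.18. For 8 microglia and macrophage markers the sum was 12.6 to 27.3 in the mutants, above all controls (the lowest at 7.49). Of these 8 genes, 7 had negative differences, and Itgam was at 1.12. Of 8 choroid plexus and roof plate markers, 6 were above background on at least 3 arrays, with sums of 1.28 to 3.64 and 2.66 to 6.38, while Ttr and Kl, defining markers of the choroid plexus, were not. The part of these cells in the results was not tested.

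**Figure D3:**
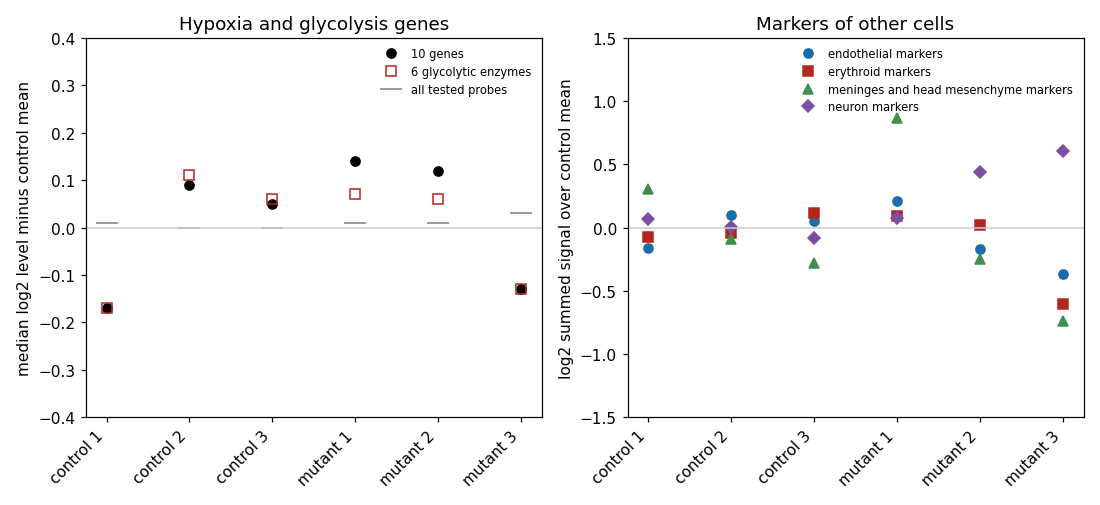
Left, median log2 level from the control mean of the 10 genes, of the 6 glycolytic enzymes and of all tested probes in each embryo. Right, log2 of the summed signal of 4 marker lists over the mean of the controls. Control 1 and mutant 3 are the low embryos on the left, at -0.17 and -0.13, and mutant 3 is the lowest for the endothelial, erythroid and mesenchymal lists on the right.

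Other genes of the same pathways were read from lists chosen by function. Of 18 other glycolysis enzymes, 0 passed the test over all probes (limma). At an unadjusted p under 0.05 there were 1 higher and 1 lower, and the median difference was 0.09. Ldhb, the lactate dehydrogenase subunit that favours pyruvate formation, was at 4.70, 4.79 and 4.76 in controls and 4.95, 5.0 and 4.99 in mutants (0.23, SE 0.07, limma, adjusted p = 0.214). Its groups did not overlap, while those of Ldha did. Adpgk, an ADP-dependent glucokinase, was lower (-0.32, SE 0.12), but its other probe was at -0.12. Pfkp, the platelet-type phosphofructokinase, was at 0.32 (SE 0.15), and the muscle enolase Eno3 at 0.18 (SE 0.10).

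Of 24 other genes known to be induced by hypoxia, 22 were tested and 0 passed, with 3 higher and 2 lower at an unadjusted p under 0.05 (median difference 0.12). Those with the smallest p lay on both sides of 0. Vldlr, a lipoprotein and reelin receptor that is also a HIF target, was at -0.01, 0.15 and 0.06 in controls and 0.99, 1.14 and 1.22 in mutants (1.05, limma, adjusted p = 0.0542), and passed under 5 alternative settings at the same threshold. Car12, a membrane carbonic anhydrase, was at -1.68, -1.08 and -0.82 in controls and -3.05, -3.10 and -3.21 in mutants (-1.92, SE 0.22, limma, adjusted p = 0.0798). Bhlhe40, a repressor of the basic helix-loop-helix family, was lower (-0.66, SE 0.20), and P4ha1, a subunit of collagen prolyl hydroxylase, was higher (0.41, SE 0.13). The third higher gene, Ndrg1 (0.40), was named after its values were seen, to complete the count.

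The HIF factors and their regulators gave 0 of 13 past the test, with 1 higher and 1 lower at an unadjusted p under 0.05 (median 0.09). Hif3a, an alpha subunit with forms that restrain the other HIF factors, was at 1.40, 1.31 and 1.52 in controls and 0.11, 0.69 and 0.46 in mutants (-0.99, SE 0.16, limma, adjusted p = 0.108). Its other probes were at -0.77 and -0.44. Cited2, which competes with HIF for the coactivators p300 and CBP, was at 0.08, 0.19 and -0.13 in controls and 0.46, 0.81 and 0.66 in mutants (0.59, SE 0.13, limma, adjusted p = 0.162), with its other probe at 0.64. Neither pair of groups overlapped. Egln2, a prolyl hydroxylase that marks HIF for degradation, was at 0.14 and Vhl, which recruits the ubiquitin ligase, at 0.15.

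Among 8 other glucose and lactate transporters 0 passed the test and 1 was higher at an unadjusted p under 0.05. This was Slc2a8, a mainly intracellular glucose transporter (0.33, SE 0.10). Slc2a10 (0.25), Slc2a12 (0.08) and Bsg, a chaperone of lactate transporters (-0.15), came next. Of 13 genes of pyruvate entry into mitochondria 0 passed and 2 were higher, both kinases of the same family as Pdk1. Pdk2 was at -1.41, -1.39 and -1.39 in controls and -1.28, -1.04 and -1.08 in mutants (0.26, SE 0.09). Pdk4 had a difference of 1.17 (SE 0.42) but was well above background on only 4 of the 6 arrays, so that this size is uncertain. Pdk3 was at -0.15 (SE 0.08) and Pdhb, a pyruvate dehydrogenase subunit, at 0.32, with its other probes at -0.11 and 0.06.

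Of 14 other VEGF ligands, receptors and angiopoietins 0 passed, with 2 higher and 1 lower at an unadjusted p under 0.05 (median -0.03). Vegfc, a ligand best known from lymphatic growth, was at 1.01, 1.07 and 1.18 in controls and 0.37, 0.07 and -0.09 in mutants (-0.97, SE 0.13, limma, adjusted p = 0.102), opposite in sign to Vegfa. Angpt2, which modulates the Tie2 receptor of vessels, was at -3.58, -3.39 and -3.34 in controls and -3.06, -2.75 and -2.72 in mutants (0.60, SE 0.13). Nrp1, a coreceptor for Vegfa, was at 0.23 (SE 0.09) and Angptl4 at -0.38 (SE 0.17). The median differences of the 6 lists, from -0.03 to 0.12, lie near that of all tested probes (0.02).

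**Figure D4:**
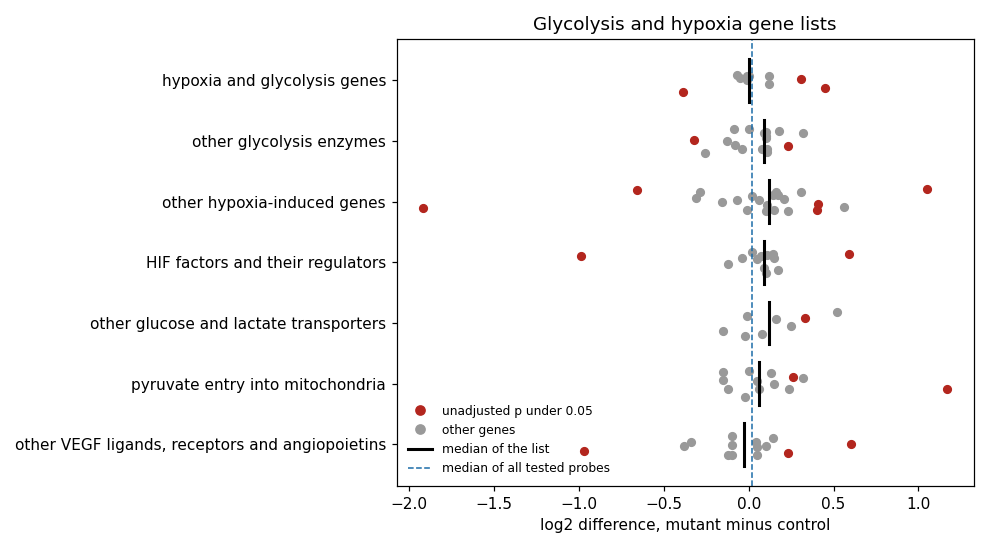
Log2 differences, mutant minus control (horizontal axis), of each tested gene of the 10 and of 6 further lists (rows; points are spread vertically for legibility); red points have an unadjusted p under 0.05, black bars are list medians and the dashed line is the median of all tested probes. The list medians stay between -0.03 and 0.12, while Car12 at -1.92, Hif3a at -0.99, Vegfc at -0.97, Vldlr at 1.05 and Pdk4 at 1.17 lie farthest out.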

How the data were processed

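Single-colour (Cy3) Agilent arrays of 6 embryos were read with Agilent Feature Extraction 10.7.3.1, per the file headers. The deposited intensity is background-subtracted within each array and not normalized between arrays, and flags mark spots above background, saturated spots or outliers (other values), per the file headers. A series table, also deposited by the authors, holds log2 values per column and, for mutant against control, a log2 ratio, a linear ratio, a p-value and an fdr. Its columns were used by group only, since column numbers do not follow the embryo numbers (its column "mutant 1" tracks mutant 2 most closely, at r = 0.914 across probes after subtraction of each probe's mean). How that table was normalized is not given in the sources. The submitters' processing notes name limma.

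Outlier spots were left out, log2 processed signals were scaled to each array's 75th percentile over non-control spots, and spots of a probe were averaged. Probes above background on at least 3 of 6 arrays were fitted with lmFit and eBayes (limma 3.58.1, R 4.3.3, Benjamini-Hochberg, two-sided), after tests on simulated data. Python 3.11.15, pandas 2.3.3, numpy 2.4.6 and matplotlib 3.10.9 were used otherwise. For lists, the brightest probe of a gene was taken, matched by table symbol or RefSeq accession. The embryos number 3 a group, which limits precision. Titles give shared litters, which pair the samples. Deviations from group means correlated at 0.303, 0.34 and 0.109 within litters, against -0.381 to 0.091 between them. Such deviations cancel out within a group, which lowers the values between litters when those within are positive. The contrast is therefore no separate test of the pairing. The values given come from the fit without a block, and a litter block was run as an alternative. Members and lists were chosen with earlier results of these data known. All 10 genes are named, and of each further pathway list up to 4 with the smallest p. Ndrg1 and, for their signs by litter, Tpi1, Gpi1, Pgam1, Pfkm and Bpgm were named besides. Single marker genes given with a difference were named after their values were seen. Alternatives were normexp, median centring, quantile normalization, other filters, 1 probe a gene, a block for litter or for slide, robust variance with a trend, a threshold of 0.1, the authors' log2 values, omission of each embryo and, added after seeing the data, of litter 1.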

Additional observations from a re-analysis of the deposited data

How the results depend on the processing

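The 13 probes gave 0 calls under every alternative run. The signs of Hk2, Ankrd37, Pfkl, both Vegfa probes and the dimmest Ldha probe held in each run that included the probe. Hk2 ranged from -0.52 to -0.28, Ankrd37 from 0.31 to 0.53 and the brighter Vegfa probe from 0.22 to 0.36. The median of the 10 genes lay between -0.074 and 0.132 when each embryo was left out in turn. With litter as a replicate block the median stayed at -0.004 and the 13 probes at 0 calls, with 2 of them at an unadjusted p under 0.05 in place of 3, but the count over all probes, 7 in the fit without the block, was 0. That count was also 0 with slide as a block, without a filter on dim probes and without litter 1, and 0 to 2 with 1 embryo left out. It was 154 with normexp (78 higher, 76 lower), 144 with trend and robust variance (54 higher, 90 lower), 28 with median centring (5 higher, 23 lower), 19 with quantile normalization, 25 for probes above background on all 6 arrays, 25 with the authors' log2 values and 74 at a threshold of 0.1. Genes of the other lists passing numbered 0 in the main setting, 4 with normexp and 4 with trend and robust variance (Vldlr, Car12, Hif3a and Vegfc in both), 1 each with quantile normalization, the filter on all arrays and the authors' log2 values (Vldlr in each), and 2 at the threshold of 0.1 (Vldlr and Car12). Median centring left 2 of 10 genes higher in the mutant of litter 2, in place of 5. The cause of these moves was not tested. With 3 arrays a group, the intervals are wide, and a probe without a call is not shown to be unchanged.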
